A study of Mus musculus with 16 samples.

Results

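The cholesterol synthesis pathway and the SREBP system that controls it were followed at the RNA level in mouse neuronal cultures. The 33 genes were taken by name, from a list drawn up with earlier results of these data known. Every row of the count table whose Ensembl gene ID belongs to a listed enzyme or regulator was taken. All 33 were found among 55335 genes. They comprise 7 enzymes of the mevalonate pathway, 11 enzymes that turn squalene precursors into cholesterol, 1 sterol transfer gene (Stard4), 2 SREBP precursors, 5 genes of SREBP processing, 3 targets of the LXR receptors and 4 genes of fatty acid synthesis. All 33 passed the filter on low counts, among 19479 genes tested. RNA was sequenced from primary forebrain cultures, which were of perinatal origin and transduced with lentiviral vectors, in 4 groups of 4 libraries. One group carried a vector without a hairpin (the empty vector). The others expressed a short hairpin RNA, either as designed (called unmutated) or changed at 2 or at 5 of its bases (called the 2-mutation and the 5-mutation hairpin). The labels give no strain, age, sex, hairpin target or time after transduction, nor do they state whether each library stems from its own culture, and p-values therefore reflect library-to-library spread that may be technical. Such a hairpin is cut by the microRNA machinery into a guide that silences matching transcripts, and mutated forms often serve as controls.

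Cholesterol is made from acetyl-CoA through mevalonate, isoprenoid diphosphates, squalene and lanosterol. SREBP2, made from Srebf2, and SREBP1, made from Srebf1, are transcription factors that start as membrane proteins of the endoplasmic reticulum. When membrane sterol is low, the escort protein SCAP carries them to the Golgi, where the proteases encoded by Mbtps1 and Mbtps2 release the active factor, which switches on most of the enzymes, its own gene and Insig1. When sterol is high, the INSIG proteins hold SCAP back, and oxysterols activate the LXR receptors, which switch on genes of sterol export. In brain, cholesterol is made locally, much of it by astrocytes, and little enters from the blood.

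SREBP factors bind short sterol regulatory elements near the start sites of their targets, often beside sites for the factors NF-Y and Sp1. The 250 bases before each RefSeq start site on GRCm38.p6 were searched on both strands for TCACNCCAC (an SRE-like motif), CACGTG (an E-box), the NF-Y motif CCAAT, the Sp1 motif GGGCGG and the direct repeat bound by the LXR receptors, and 26 of the 33 members had 34 such windows. Windows of 4 members are printed, picked from those with no annotated exon base. They show a strongly lowered enzyme with the SRE-like motif (Hmgcs1, chr13:119690101-119690350, plus strand), lowered enzymes without it (Mvd, chr8:122443423-122443672, and Sc5d, chr9:42264301-42264550, both minus strand) and a regulator that did not fall (Insig2, chr1:121332590-121332839, minus strand). Each is written 5′ to 3′ on the gene's strand, with capitals for the SRE-like motif, the E-box and CCAAT or its reverse complement ATTGG. Other start sites of Insig2 have windows that overlap annotated exons and hold GGGCGG but no CCAAT.
Hmgcs1: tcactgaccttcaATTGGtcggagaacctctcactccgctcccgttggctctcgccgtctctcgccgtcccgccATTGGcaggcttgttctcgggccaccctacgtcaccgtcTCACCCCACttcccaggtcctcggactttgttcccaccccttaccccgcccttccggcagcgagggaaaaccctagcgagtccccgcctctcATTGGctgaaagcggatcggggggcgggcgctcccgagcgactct
Mvd: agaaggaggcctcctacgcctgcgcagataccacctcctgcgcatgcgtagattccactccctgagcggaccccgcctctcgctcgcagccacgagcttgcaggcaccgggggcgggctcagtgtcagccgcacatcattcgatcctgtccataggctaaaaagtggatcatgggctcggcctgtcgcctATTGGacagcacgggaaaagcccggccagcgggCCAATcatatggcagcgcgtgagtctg
Sc5d: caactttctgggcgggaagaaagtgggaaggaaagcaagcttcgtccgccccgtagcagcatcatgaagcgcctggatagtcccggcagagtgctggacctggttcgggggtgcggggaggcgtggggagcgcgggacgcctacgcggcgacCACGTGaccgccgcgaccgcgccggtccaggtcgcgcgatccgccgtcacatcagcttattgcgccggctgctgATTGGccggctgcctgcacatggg
Insig2: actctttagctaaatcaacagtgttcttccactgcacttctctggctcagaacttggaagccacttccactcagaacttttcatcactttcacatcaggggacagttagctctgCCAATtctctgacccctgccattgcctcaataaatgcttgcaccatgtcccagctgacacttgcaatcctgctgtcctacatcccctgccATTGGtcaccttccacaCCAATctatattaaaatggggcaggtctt
The SRE-like motif was found in 1 of the 34 windows (2.9%), that of Hmgcs1, as TCACCCCAC from 137 to 129 bases before the start site, against 1.05% of all 32851 windows. CCAAT was found in 21 of the 34 windows (61.8%, against 33.8% of all windows and 35.4% of those of coding genes) and GGGCGG in 25 (73.5%, against 32.7% and 42.6%). CACGTG was found in 6 (17.6%, against 6.02%), among them the window of Sc5d, and the LXR repeat in 0 (against 0.0152%). These are matches of letters in a fixed window, and a window without a match says only that these letters are not in it.

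Total counts ran from 33795369 to 49824569 per library. Rtn4 was read first, because earlier results of these data had pointed to it. For that reason its values are no independent check of the labels. It stood at 863 ± 27.2 CPM (library-scaled counts, mean ± SD, n = 4) with the empty vector, 30.5 ± 0.692 with the unmutated hairpin, 127 ± 3.40 with the 2-mutation hairpin and 828 ± 37.2 with the 5-mutation hairpin. The unmutated and 2-mutation hairpins stood apart from each other and from the rest. The 5-mutation hairpin overlapped the empty vector, so Rtn4 does not tell these last groups apart at all. Of the sterol pathway genes, replicate 3 of the unmutated hairpin stood apart: 17 of the 18 enzymes of sterol synthesis were highest there within its group. Replicate 3 of the 5-mutation hairpin carried more RNA of fibroblast and meningeal markers, whose 6 genes summed to 177.8 CPM there against 27.1 to 54.3 in the other 15 libraries. The counts of members called below were 2 and 24 (higher and lower, unmutated hairpin), 4 and 23 (2-mutation) and 2 and 26 (5-mutation). With the library numbered 3 left out of every group, an alternative chosen after seeing the data, they were 1 and 24, 4 and 22, and 2 and 26. The 2 higher with the 5-mutation hairpin were then not the same members. Pmvk lost its call (adjusted p = 0.111) and Insig2 gained one (adjusted p = 0.0483).

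Most of the pathway was lower with every hairpin. With the unmutated hairpin, 24 of the 33 members fell and 2 rose against the empty vector, at an adjusted p below 0.05. Over all genes tested in that comparison, 19.5% fell and 20.8% rose. With the 2-mutation hairpin 23 fell and 4 rose (30.8% and 32.5% of all genes), and with the 5-mutation hairpin 26 fell and 2 rose (26.5% and 28.4% of all genes). The median log2 fold change of the members was -0.56, -0.75 and -0.92 in that order, beside 0.01, -0.01 and 0.03 over all genes tested. The 3 comparisons share the empty vector libraries, so they are not independent of each other. In all 3, 18 members fell, where 5.85% of all genes did. Of these 18 members, 17 had no overlap between the libraries of each hairpin and those of the empty vector, Msmo1 being the exception. In the single comparisons, 22, 23 and 26 of the 33 members were lower without overlap, where 18.7%, 28.6% and 23.7% of all genes tested were. The share of all genes lower without overlap in all 3 at once was not computed. Srebf1 alone was called in none of the 3 comparisons. In bulk RNA of a culture, fewer cells of a type and less RNA per cell cannot be told apart.

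**Figure D1:**
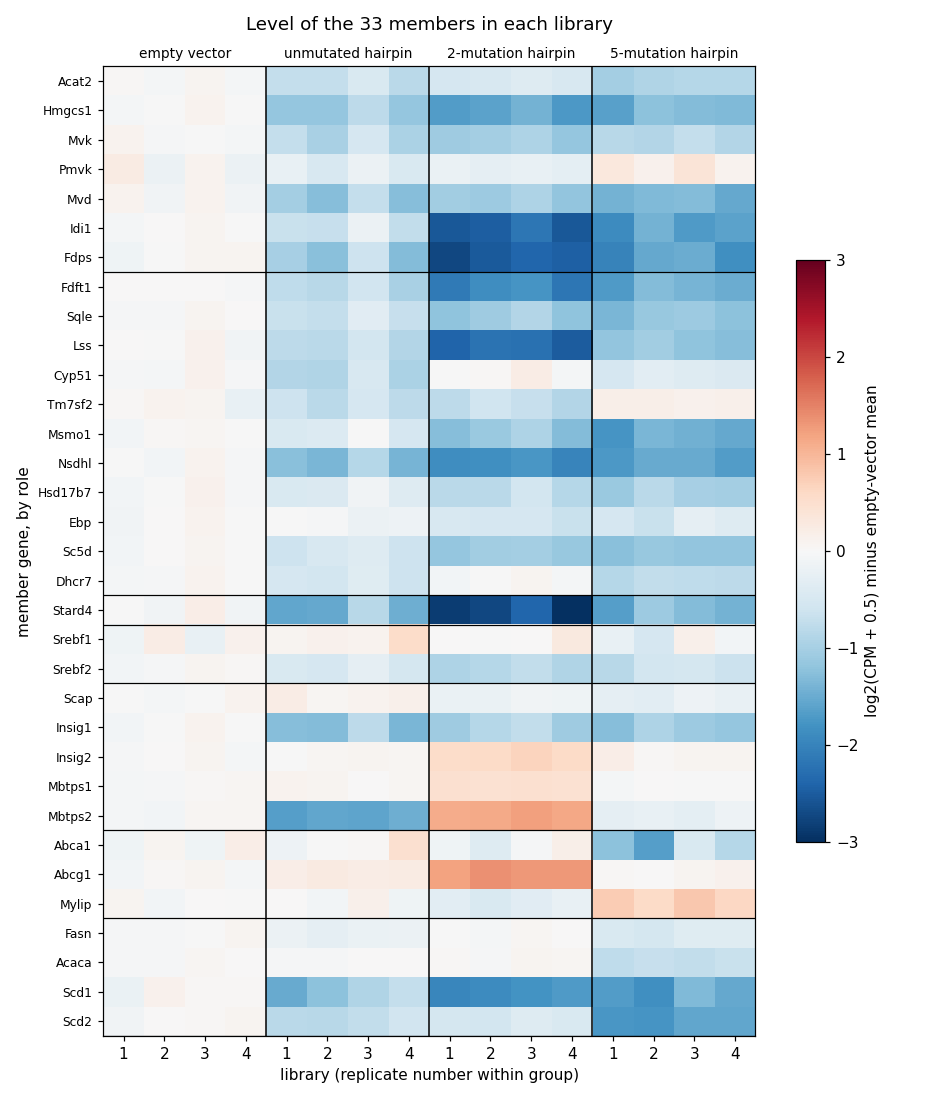
Level of each of the 33 members (rows, by role) in each of the 16 libraries (columns, by group and replicate number), as log2(CPM + 0.5) minus the empty vector mean of that gene, with blue lower and red higher. The block of the 18 enzymes and Stard4 at the top is blue in most hairpin libraries, while Mbtps2, Abcg1, Insig2 and Mbtps1 are red with the 2-mutation hairpin and Mylip with the 5-mutation hairpin.

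The summed level of the 18 sterol synthesis enzymes ran from 3021 to 3301 CPM with the empty vector. With the unmutated, 2-mutation and 5-mutation hairpins it spanned 1625 to 2110, 1300.0 to 1564 and 1236 to 1476 CPM, or 57.1%, 45.1% and 44.5% of the empty vector mean. No hairpin library reached the lowest empty vector library. Hmgcs1 weighs heavily in these sums, with a mean of 1335 CPM of the 3105 CPM summed with the empty vector. Of the 18 enzymes, 17 fell with the unmutated hairpin (Ebp was not called) and 16 with the 2-mutation hairpin (Cyp51 and Dhcr7 were not called). With the 5-mutation hairpin 16 fell, Tm7sf2 was not called and Pmvk rose. The median log2 fold change of the enzymes was -0.68, -1.08 and -1.19. The deepest fall of an enzyme among the 3 hairpins came with the 2-mutation hairpin for 9 enzymes, with the 5-mutation hairpin for 7 and with the unmutated hairpin for 2.

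The mevalonate pathway runs from acetyl-CoA to farnesyl diphosphate. All 7 of its genes fell with the unmutated and with the 2-mutation hairpin, and 6 fell with the 5-mutation hairpin. Values are CPM in replicates 1 to 4, and fold changes are log2 ± SE against the empty vector in the order unmutated, 2-mutation and 5-mutation. Hmgcs1 stood at 1273, 1314, 1431 and 1321 CPM with the empty vector, at 593, 596, 769 and 594 with the unmutated hairpin, at 416, 439, 499 and 401 with the 2-mutation hairpin and at 434, 569, 539 and 529 with the 5-mutation hairpin. Hmgcs1 encodes HMG-CoA synthase and had the highest level per kilobase of exon of all members (290.5 ± 14.8 CPM per kb, SD, n = 4, empty vector). Its fall was by 1.06 ± 0.10, 1.60 ± 0.10 and 1.37 ± 0.10 (adjusted p = 1.84e-07, 3.06e-10 and 3.53e-09) on the log2 scale, and every hairpin library lay well below every empty vector library. Acat2 stood at 156, 146, 161 and 145 CPM with the empty vector, at 91.7, 92.6, 110.5 and 86.03 with the unmutated hairpin, at 107, 109, 116 and 108 with the 2-mutation hairpin and at 74.6, 80.4, 84.01 and 83.1 with the 5-mutation hairpin. Acat2, the thiolase that joins acetyl-CoA units at the start of the pathway, fell by 0.68 ± 0.06, 0.47 ± 0.06 and 0.92 ± 0.06 (adjusted p = 1.24e-08, 6.78e-07 and 3.54e-11). Its levels with the 2-mutation hairpin were the least reduced of the 3, and no hairpin library overlapped the empty vector.

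Among the kinases and the decarboxylase that follow, Pmvk stood apart. Mvk stood at 49.1, 44.9, 45.8 and 43.6 CPM with the empty vector, at 27.9, 23.1, 32.3 and 23.4 with the unmutated hairpin, at 21.7, 22.2, 23.97 and 20.1 with the 2-mutation hairpin and at 25.3, 24.9, 27.6 and 24.6 with the 5-mutation hairpin. Mvk, mevalonate kinase, fell by 0.78 ± 0.08, 1.06 ± 0.08 and 0.84 ± 0.08 (adjusted p = 2.61e-07, 8.39e-10 and 3.63e-08), with no overlap with the empty vector. Mvd stood at 101, 87.2, 100.3 and 86.6 CPM with the empty vector, at 45.97, 38.6, 56.4 and 38.1 with the unmutated hairpin, at 44.9, 43.5, 49.3 and 40.6 with the 2-mutation hairpin and at 34.6, 36.9, 37.8 and 32.02 with the 5-mutation hairpin. Mvd, the decarboxylase that makes isopentenyl diphosphate, fell by 1.07 ± 0.11, 1.07 ± 0.11 and 1.41 ± 0.11 (adjusted p = 8.29e-07, 2.28e-07 and 1.47e-08). Its promoter window is among those printed above, with CCAAT and without the SRE-like motif. Pmvk stood at 36.6, 27.4, 32.95 and 27.3 CPM with the empty vector, at 26.5, 21.9, 27.4 and 22.2 with the unmutated hairpin, at 26.7, 25.6, 26.5 and 25.3 with the 2-mutation hairpin and at 38.6, 33.5, 40.3 and 33.4 with the 5-mutation hairpin. Pmvk, phosphomevalonate kinase, differed by -0.34 ± 0.10, -0.26 ± 0.10 and 0.23 ± 0.09 (adjusted p = 0.00753, 0.0258 and 0.0457), so it fell with the unmutated and the 2-mutation hairpin and rose with the 5-mutation hairpin. The groups overlapped except for the 2-mutation hairpin, and the calls with the mutated hairpins were lost under alternatives: adjusted p was 0.0682 for the rise with DESeq2, and 0.112 for the 2-mutation fall without replicate 1 of the empty vector.

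With both mutated hairpins, the last steps to farnesyl diphosphate showed the deepest falls of the pathway. Idi1 stood at 37.95, 39.9, 42.1 and 39.3 CPM with the empty vector, at 24.7, 24.6, 35.4 and 23.6 with the unmutated hairpin, at 6.46, 6.80, 8.54 and 6.42 with the 2-mutation hairpin and at 10.5, 14.6, 11.9 and 12.7 with the 5-mutation hairpin. Idi1, which interconverts the isoprenoid building blocks, fell by 0.56 ± 0.12, 2.50 ± 0.14 and 1.68 ± 0.13 (adjusted p = 0.00148, 5.44e-11 and 7.77e-09). The 2-mutation libraries were the lowest, the 5-mutation libraries came next, and replicate 3 of the unmutated hairpin lay closest to the empty vector. Fdps stood at 7.32, 7.95, 8.55 and 8.59 CPM with the empty vector, at 3.80, 3.11, 5.10 and 2.98 with the unmutated hairpin, at 0.789, 0.992, 1.15 and 1.07 with the 2-mutation hairpin and at 1.66, 2.45, 2.58 and 1.91 with the 5-mutation hairpin. Fdps, farnesyl diphosphate synthase, fell by 1.11 ± 0.16, 3.02 ± 0.18 and 1.92 ± 0.16 (adjusted p = 5.51e-06, 1.77e-12 and 1.46e-09), in the same order of groups. Fdps had the lowest level per kilobase of the members (1.92 ± 0.142 CPM per kb with the empty vector) and shares 1124 exon bases with Gm43738 on the same strand, so its level is uncertain where counting split reads between them. Idi1 and Hmgcs1 share exon bases with an annotated gene on the opposite strand, and it is not known whether counting used strand.

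From squalene synthesis to cholesterol, 10 of 11 enzymes fell with the unmutated hairpin, 9 with the 2-mutation hairpin and 10 with the 5-mutation hairpin. Lss stood at 74.4, 73.2, 81.2 and 69.02 CPM with the empty vector, at 42.8, 42.2, 50.4 and 40.4 with the unmutated hairpin, at 13.6, 15.5, 15.3 and 12.9 with the 2-mutation hairpin and at 32.5, 36.00, 31.8 and 30.5 with the 5-mutation hairpin. Lss, lanosterol synthase, which closes the sterol rings, fell by 0.76 ± 0.07, 2.38 ± 0.08 and 1.19 ± 0.07 (adjusted p = 2.72e-08, 2.23e-16 and 1.22e-11). The 2-mutation libraries lay far below those of the other hairpins, with no overlap between any groups. Nsdhl stood at 82.99, 78.9, 89.9 and 80.6 CPM with the empty vector, at 34.6, 32.04, 45.95 and 31.4 with the unmutated hairpin, at 22.5, 22.8, 24.6 and 20.7 with the 2-mutation hairpin and at 24.9, 28.8, 28.9 and 25.6 with the 5-mutation hairpin. Nsdhl, a dehydrogenase in the removal of methyl groups from the sterol, fell by 1.21 ± 0.10, 1.88 ± 0.10 and 1.62 ± 0.10 (adjusted p = 2.64e-08, 2.31e-11 and 2.47e-10). Its smallest fall, 1.21 ± 0.10 with the unmutated hairpin, was the largest smallest fall among the 18 enzymes. Sc5d stood at 112, 118, 126 and 118 CPM with the empty vector, at 76.4, 85.3, 89.7 and 76.5 with the unmutated hairpin, at 52.9, 56.8, 58.5 and 53.1 with the 2-mutation hairpin and at 49.4, 53.9, 52.04 and 51.6 with the 5-mutation hairpin. Sc5d, a sterol desaturase near the end of the pathway, fell by 0.53 ± 0.05, 1.10 ± 0.05 and 1.19 ± 0.05 (adjusted p = 4.7e-08, 7.3e-14 and 3.42e-14). The 2-mutation and 5-mutation libraries overlapped each other below those of the unmutated hairpin.

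The other 8 enzymes of this stretch followed with different patterns across the hairpins. Fdft1, squalene synthase, stood at 218 to 226 CPM with the empty vector and fell by 0.78 ± 0.10, 1.98 ± 0.10 and 1.47 ± 0.10 (adjusted p = 6.53e-06, 2.99e-11 and 1.78e-09). Fdft1 shares 774 exon bases with Ctsb on the opposite strand. Sqle, squalene epoxidase, stood at 290.1 to 315 CPM with the empty vector and fell by 0.59 ± 0.09, 1.09 ± 0.09 and 1.21 ± 0.09 (adjusted p = 3.11e-05, 6.66e-09 and 2.96e-09). Msmo1 and Hsd17b7, which act with Nsdhl in removing methyl groups, also fell with every hairpin, Msmo1 by 0.34 ± 0.11, 1.15 ± 0.12 and 1.53 ± 0.12 (adjusted p = 0.0288, 4.1e-07 and 2.65e-08) and Hsd17b7 by 0.35 ± 0.08, 0.75 ± 0.08 and 0.99 ± 0.08 (adjusted p = 0.00237, 2.57e-07 and 1.06e-08). The call of Msmo1 with the unmutated hairpin was lost without any 1 of 6 libraries, at an adjusted p of 0.0519 to 0.0877. Ebp, a sterol isomerase, fell with the 2-mutation and 5-mutation hairpins by 0.56 ± 0.08 and 0.47 ± 0.08, and its difference of -0.10 ± 0.08 with the unmutated hairpin was not called (95% interval -0.25 to 0.05).

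Among the enzymes, Cyp51, Dhcr7 and Tm7sf2 were each not called with 1 of the mutated hairpins, and they are singled out here after their values were seen. Cyp51, the lanosterol demethylase, stood at 149.6 to 170.2 CPM with the empty vector, 81.4 to 112 with the unmutated hairpin, 149.7 to 182 with the 2-mutation hairpin and 111 to 126 with the 5-mutation hairpin. It fell with the unmutated and the 5-mutation hairpin, by 0.79 ± 0.09 and 0.41 ± 0.09, while the 2-mutation difference was 0.04 ± 0.09 (adjusted p = 0.682, 95% interval -0.12 to 0.21). Dhcr7, the reductase of the final step, fell by 0.52 ± 0.05 and 0.79 ± 0.05 with the same hairpins, and its 2-mutation difference was -0.02 ± 0.05 (95% interval -0.12 to 0.08). Between the 2-mutation and unmutated hairpins, tested directly, Cyp51 and Dhcr7 were higher with the 2-mutation hairpin by 0.84 ± 0.09 and 0.50 ± 0.05 (adjusted p = 1.64e-07 and 1.79e-08). Tm7sf2, a sterol reductase, fell by 0.69 ± 0.08 and 0.75 ± 0.08 with the unmutated and 2-mutation hairpins, and its difference of 0.16 ± 0.07 with the 5-mutation hairpin was not called (adjusted p = 0.073). Its 5-mutation libraries all lay above those of the empty vector (35.4 to 36.5 against 27.5 to 34.7 CPM). Tm7sf2 was called higher there without the low-count filter (adjusted p = 0.0348) and without replicate 2 of the empty vector (adjusted p = 0.046). It was also called higher with the replicate number as a block (adjusted p = 0.0222). The 5-mutation hairpin was higher than the unmutated hairpin for Tm7sf2 by 0.85 ± 0.08 (adjusted p = 3.5e-09). Tm7sf2 shares 532 exon bases with Vps51 on the same strand, and Cyp51 shares exon bases with Akap9 on the opposite strand.

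**Figure D2:**
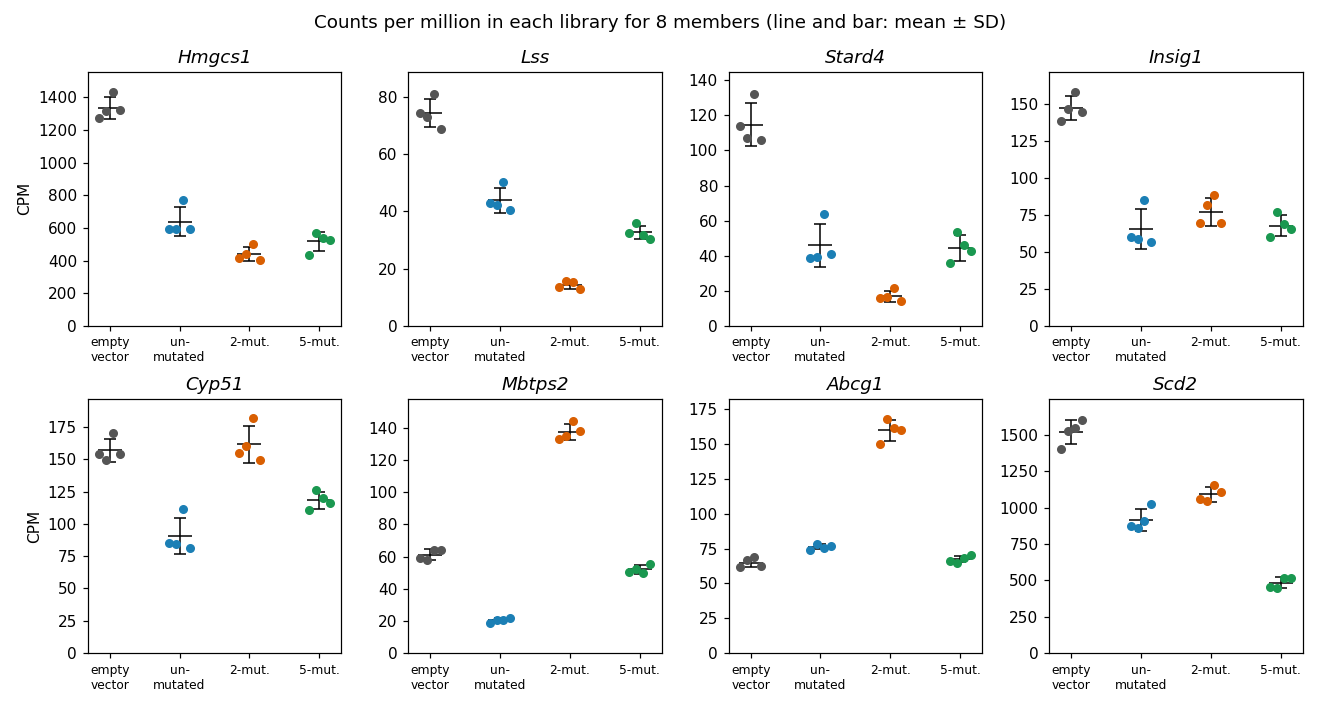
CPM of 8 members in each library, by group, with the mean and SD of the 4 libraries as a line and bar, on linear axes from 0. Hmgcs1, Lss, Stard4 and Insig1 are lower in every hairpin library than in every empty vector library, Cyp51 with the 2-mutation hairpin overlaps the empty vector, Mbtps2 is lower with the unmutated and higher with the 2-mutation hairpin, and Abcg1 is higher with the 2-mutation hairpin.

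Stard4 encodes a small carrier that moves cholesterol between membranes and is itself a target of SREBP2. Stard4 stood at 114, 107, 132 and 106 CPM with the empty vector, at 38.8, 39.4, 63.9 and 41.1 with the unmutated hairpin, at 15.6, 16.7, 21.4 and 13.96 with the 2-mutation hairpin and at 35.8, 53.6, 46.1 and 42.8 with the 5-mutation hairpin. It fell by 1.33 ± 0.18, 2.77 ± 0.19 and 1.36 ± 0.18 (adjusted p = 4.64e-05, 1.92e-08 and 1.83e-05), and no hairpin library reached the empty vector. The 2-mutation hairpin was lowest, by 1.44 ± 0.19 below the unmutated hairpin (adjusted p = 1.51e-05). Replicate 3 of the unmutated hairpin was above the other 3 of its group, as for many enzymes.

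Of the SREBP precursors, Srebf2 fell with every hairpin and Srebf1 was not called. Srebf2 stood at 307, 320.0, 343 and 335 CPM with the empty vector, at 236, 230.2, 270.1 and 227 with the unmutated hairpin, at 170.3, 179.5, 196 and 173 with the 2-mutation hairpin and at 183, 223, 226 and 207 with the 5-mutation hairpin. Srebf2, the main activator of the sterol enzymes, fell by 0.44 ± 0.07, 0.86 ± 0.07 and 0.64 ± 0.07 (adjusted p = 1.84e-05, 4.27e-10 and 5.74e-08), with no overlap with the empty vector. Srebf1 stood at 23.2, 29.7, 21.7 and 28.04 CPM with the empty vector, at 26.9, 27.8, 27.6 and 37.3 with the unmutated hairpin, at 25.7, 25.3, 25.6 and 31.4 with the 2-mutation hairpin and at 21.7, 17.7, 28.3 and 24.04 with the 5-mutation hairpin. For Srebf1, which acts more on fatty acid genes, the differences were 0.22 ± 0.15, 0.08 ± 0.15 and -0.17 ± 0.15 (adjusted p = 0.267, 0.679 and 0.375), with 95% intervals of -0.07 to 0.51, -0.22 to 0.37 and -0.46 to 0.13. The Srebf1 libraries of all groups overlapped, and without the filter on low counts it was called higher with the unmutated hairpin (adjusted p = 0.00477) and lower with the 5-mutation hairpin (adjusted p = 0.0395). Per kilobase of exon, the level of Srebf2 was 8.44 to 12.4 times that of Srebf1 with the empty vector. That ratio of levels was 4.78 to 7.68 with the unmutated hairpin, 4.32 to 5.99 with the 2-mutation hairpin and 6.28 to 9.87 with the 5-mutation hairpin. Only the last range overlapped the empty vector.

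Among the 5 genes of SREBP processing, 2 fell and 1 rose with the unmutated hairpin, 2 fell and 3 rose with the 2-mutation hairpin, and 3 fell with the 5-mutation hairpin. Over all genes tested, 19.5%, 30.8% and 26.5% fell and 20.8%, 32.5% and 28.4% rose, in the same order. The 1 rise with the unmutated hairpin and the 2 falls with the 2-mutation hairpin were thus near the background. Insig1 stood at 139, 147, 158 and 145 CPM with the empty vector, at 60.1, 59.00, 85.4 and 56.8 with the unmutated hairpin, at 69.5, 81.5, 88.2 and 69.5 with the 2-mutation hairpin and at 60.1, 77.03, 68.8 and 65.2 with the 5-mutation hairpin. Insig1, which holds SCAP in the endoplasmic reticulum and is a target of SREBP2, fell by 1.17 ± 0.12, 0.93 ± 0.12 and 1.12 ± 0.12 (adjusted p = 2.74e-06, 9.34e-06 and 1.99e-06). The hairpin groups overlapped each other and were not called apart (adjusted p = 0.109, 0.745 and 0.202 between them). Insig2 stood at 25.8, 26.5, 28.1 and 25.4 CPM with the empty vector, at 26.4, 27.5, 27.8 and 27.7 with the unmutated hairpin, at 38.8, 39.3, 41.97 and 39.6 with the 2-mutation hairpin and at 30.5, 27.01, 28.1 and 28.1 with the 5-mutation hairpin. Insig2, a relative of Insig1 with the same action, rose with the 2-mutation hairpin by 0.59 ± 0.05 (adjusted p = 3.6e-10), with no overlap. Its differences of 0.05 ± 0.05 and 0.10 ± 0.05 with the unmutated and 5-mutation hairpins were not called (95% intervals -0.05 to 0.14 and 0.01 to 0.20), although the latter was called higher under 5 alternatives at an adjusted p of 0.0229 to 0.0483, among them upper-quartile scaling and the fits without replicate 3 of the empty vector or replicate 2 of the 5-mutation hairpin. Per kilobase, the level of Insig1 was 6.05 to 6.41 times that of Insig2 with the empty vector and 1.97 to 3.45 times in the 12 hairpin libraries.

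The proteases and the escort moved less uniformly. Mbtps2 stood at 59.1, 58.1, 64.1 and 63.9 CPM with the empty vector, at 19.00, 20.4, 20.3 and 21.9 with the unmutated hairpin, at 133, 135, 144 and 138 with the 2-mutation hairpin and at 50.5, 52.2, 49.8 and 55.5 with the 5-mutation hairpin. Mbtps2, the membrane protease that makes the final cut, fell by 1.59 ± 0.05 with the unmutated hairpin (adjusted p = 9e-16), rose by 1.17 ± 0.05 with the 2-mutation hairpin (adjusted p = 3.71e-15) and fell by 0.24 ± 0.05 with the 5-mutation hairpin (adjusted p = 0.000239). The 4 groups did not overlap, and the 2-mutation hairpin exceeded the unmutated one by 2.75 ± 0.05. Mbtps2 lies at chrX:157535371-157598715 (GRCm38, minus strand) and shares 2867 exon bases with Yy2 on the same strand, so the counting could have split or lost reads there. Mbtps1 stood at 59.2, 60.1, 62.4 and 63.7 CPM with the empty vector, at 65.9, 64.8, 61.5 and 63.4 with the unmutated hairpin, at 85.9, 84.2, 85.8 and 84.2 with the 2-mutation hairpin and at 58.9, 61.7, 60.4 and 60.7 with the 5-mutation hairpin. Mbtps1, the protease that cuts before it, rose with the 2-mutation hairpin by 0.47 ± 0.04 (adjusted p = 2.27e-10) and was not called with the others. Per kilobase, the level of Mbtps1 was 0.933 to 0.992 times that of Mbtps2 with the empty vector, 2.78 to 3.33 times with the unmutated hairpin, 0.57 to 0.618 times with the 2-mutation hairpin and 1.05 to 1.16 times with the 5-mutation hairpin. Scap stood at 100.5, 96.7, 100.1 and 109 CPM with the empty vector, at 118, 105, 109 and 113 with the unmutated hairpin, at 87.8, 88.8, 93.6 and 92.2 with the 2-mutation hairpin and at 84.5, 82.1, 91.3 and 87.3 with the 5-mutation hairpin. Scap rose with the unmutated hairpin by 0.13 ± 0.05 (adjusted p = 0.027) and fell with the 2-mutation and 5-mutation hairpins by 0.17 ± 0.05 and 0.24 ± 0.05 (adjusted p = 0.00342 and 0.00015). These are small differences, the unmutated libraries overlapped the empty vector, and that rise was lost with DESeq2 (adjusted p = 0.0749). Scap also shares 985 exon bases with 5830462I19Rik on the opposite strand.

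Pmvk, Scap, Mbtps2 and Mylip were the 4 members called in opposite directions by different hairpins, beside 22.7% of all genes tested.

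The 3 LXR targets act when sterol is abundant, and they moved apart from one another. Abcg1 stood at 61.7, 66.6, 68.9 and 62.6 CPM with the empty vector, at 74.1, 78.4, 75.6 and 77.2 with the unmutated hairpin, at 149.9, 168, 162 and 160.1 with the 2-mutation hairpin and at 66.2, 65.03, 68.2 and 70.6 with the 5-mutation hairpin. Abcg1, a sterol exporter, rose with the unmutated and 2-mutation hairpins by 0.23 ± 0.04 and 1.30 ± 0.04 (adjusted p = 0.000253 and 1.89e-16), with no overlap, and its 5-mutation difference of 0.06 ± 0.04 was not called. Abca1 stood at 79.8, 92.8, 79.7 and 101 CPM with the empty vector, at 79.7, 87.7, 90.3 and 123 with the unmutated hairpin, at 80.8, 67.1, 85.1 and 98.98 with the 2-mutation hairpin and at 36.9, 27.5, 63.9 and 48.7 with the 5-mutation hairpin. Abca1, which exports cholesterol to apolipoproteins, fell with the 5-mutation hairpin by 1.01 ± 0.23 (adjusted p = 0.00212). Its differences of 0.11 ± 0.22 and -0.09 ± 0.22 with the other hairpins were not called, with wide 95% intervals of -0.33 to 0.54 and -0.53 to 0.35. Abca1 was highest in replicate 4 of every group except that of the 5-mutation hairpin, in which replicate 3 was highest. Mylip stood at 16.7, 15.1, 16.03 and 15.7 CPM with the empty vector, at 16.1, 14.8, 17.8 and 14.4 with the unmutated hairpin, at 12.7, 11.4, 12.4 and 13.6 with the 2-mutation hairpin and at 27.3, 23.8, 28.2 and 24.6 with the 5-mutation hairpin. Mylip, a ubiquitin ligase that directs lipoprotein receptors to breakdown, fell with the 2-mutation hairpin by 0.34 ± 0.07 and rose with the 5-mutation hairpin by 0.71 ± 0.07 (adjusted p = 0.000351 and 2.22e-08), without overlap in either case.

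Of the 4 genes of fatty acid synthesis, 4 fell with the 5-mutation hairpin, 3 with the unmutated hairpin and 2 with the 2-mutation hairpin. In the same order, 26.5%, 19.5% and 30.8% of all genes tested fell. Scd2 stood at 1405, 1529, 1552 and 1604 CPM with the empty vector, at 874, 858, 907 and 1023 with the unmutated hairpin, at 1063, 1045, 1159 and 1110.0 with the 2-mutation hairpin and at 454, 449, 518 and 516 with the 5-mutation hairpin. Scd2, the main brain desaturase of saturated fatty acids, fell by 0.73 ± 0.06, 0.48 ± 0.06 and 1.65 ± 0.06 (adjusted p = 2.62e-09, 4.25e-07 and 1.99e-15). The 5-mutation libraries were the lowest by a wide margin, and no groups overlapped. Scd1 stood at 81.8, 103, 95.6 and 95.98 CPM with the empty vector, at 32.8, 39.9, 49.99 and 56.5 with the unmutated hairpin, at 23.6, 25.2, 26.8 and 28.5 with the 2-mutation hairpin and at 29.2, 26.1, 37.4 and 32.3 with the 5-mutation hairpin. Scd1, its close relative, fell by 1.07 ± 0.15, 1.86 ± 0.15 and 1.60 ± 0.15 (adjusted p = 5.43e-05, 9.2e-08 and 5.98e-07), most with the 2-mutation hairpin. Per kilobase, the level of Scd2 was 13.2 to 15.4 times that of Scd1 with the empty vector and 34.9 to 40.3 times with the 2-mutation hairpin. Acaca stood at 212, 211, 226 and 217 CPM with the empty vector, at 212, 209.5, 219 and 219 with the unmutated hairpin, at 220.1, 211, 229 and 225 with the 2-mutation hairpin and at 127, 134, 130.5 and 136 with the 5-mutation hairpin. Acaca, which makes malonyl-CoA, fell with the 5-mutation hairpin by 0.71 ± 0.04 (adjusted p = 6.61e-13), while -0.01 ± 0.04 and 0.03 ± 0.04 with the others were not called (95% intervals -0.09 to 0.06 and -0.04 to 0.11). Fasn, fatty acid synthase, stood at 745 to 808 CPM with the empty vector and fell by 0.20 ± 0.04 and 0.43 ± 0.04 with the unmutated and 5-mutation hairpins (adjusted p = 0.000618 and 1.15e-08). Its 2-mutation difference was 0.00 ± 0.04 (95% interval -0.08 to 0.09).

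**Figure D3:**
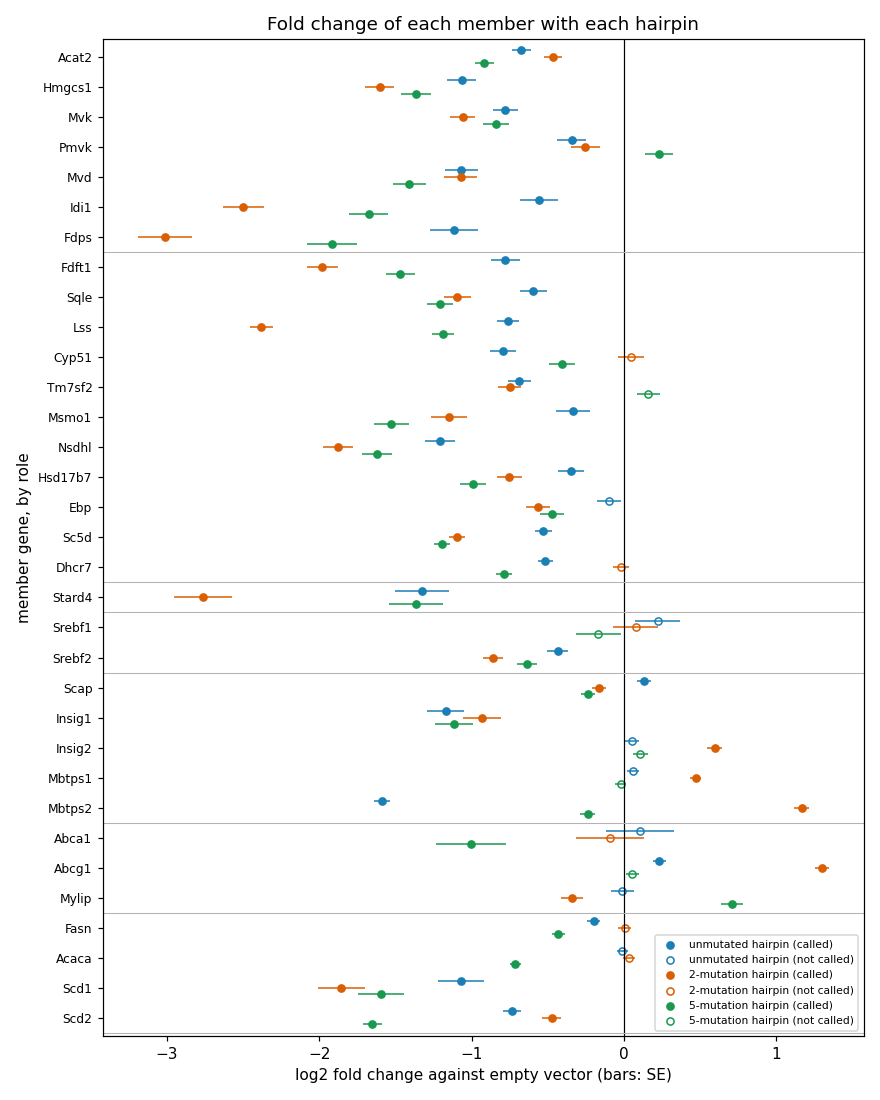
Log2 fold change against the empty vector (x axis, bars are SE) of each member (y axis, by role) with each of the 3 hairpins, filled where called at an adjusted p below 0.05 and open where not. Nearly all enzyme points lie left of 0, with Fdps, Idi1 and Lss farthest left with the 2-mutation hairpin, and Mbtps2 spans from -1.59 to 1.17.

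The hairpins also differed from each other. Against the unmutated hairpin, 17 members were lower and 9 higher with the 2-mutation hairpin, where 31.2% of all genes were lower and 31.5% higher, and 23 were lower and 5 higher with the 5-mutation hairpin (26.8% and 28.5% of all genes). Against the 2-mutation hairpin, 14 were lower and 12 higher with the 5-mutation hairpin (32.3% and 33.6% of all genes). The share of members higher here (36.4%) was near that of all genes. So was the share higher with the 2-mutation than with the unmutated hairpin (27.3%). Of the 18 enzymes, 12 were lower and 3 higher with the 2-mutation than with the unmutated hairpin, and 14 were lower and 3 higher with the 5-mutation than with the unmutated hairpin. Between the mutated hairpins, 9 enzymes were higher and 6 lower with 5 mutations. The share of enzymes lower there (33.3%) was near that of all genes (32.3%). Rtn4 fell by 4.82 ± 0.05 with the unmutated hairpin and by 2.77 ± 0.04 with the 2-mutation hairpin, and its 5-mutation difference was -0.06 ± 0.04 (adjusted p = 0.203).

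Genes around the members were read from 2 further lists. Of 22 other genes tied to SREBP and lipid synthesis, 9 fell and 4 rose with the unmutated hairpin, 14 fell and 5 rose with the 2-mutation hairpin, and 12 fell and 3 rose with the 5-mutation hairpin, with median log2 fold changes of -0.03, -0.27 and -0.13. Of all genes tested, 19.5%, 30.8% and 26.5% fell and 20.8%, 32.5% and 28.4% rose, so the share that rose with the unmutated hairpin (18.2% of the list) was near that of all genes. Acly stood at 475, 475, 506 and 489 CPM with the empty vector, at 238, 228, 270.3 and 230.4 with the unmutated hairpin, at 286, 288, 313 and 291 with the 2-mutation hairpin and at 236, 245, 262 and 249 with the 5-mutation hairpin. Acly, which makes cytosolic acetyl-CoA from citrate, fell by 1.01 ± 0.05, 0.72 ± 0.05 and 0.97 ± 0.05 (adjusted p = 7.78e-13, 2.48e-11 and 3.43e-13), and the hairpin libraries lay below all those of the empty vector. Acss2, which makes acetyl-CoA from acetate, fell by 0.69 ± 0.06, 1.14 ± 0.06 and 1.38 ± 0.06 (adjusted p = 3.22e-09, 1.73e-13 and 1.71e-14). The fatty acid desaturases Fads1 and Fads2 were lowest with the 5-mutation hairpin, by 1.56 ± 0.05 and 1.51 ± 0.06 (adjusted p = 1.81e-16 and 4.3e-15). Elovl6, a fatty acid elongase, fell with the unmutated and 2-mutation hairpins by 0.64 ± 0.06 and 1.52 ± 0.06, and its 5-mutation difference was -0.05 ± 0.05 (adjusted p = 0.463). Ggps1, which makes geranylgeranyl diphosphate, fell with the 2-mutation hairpin by 1.02 ± 0.05 and Aacs, which makes acetoacetyl-CoA in the cytosol, with the unmutated hairpin by 0.48 ± 0.05.

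Of 19 other genes of sterol sensing, transport and storage, 8 fell and 4 rose with the unmutated hairpin, 3 fell and 9 rose with the 2-mutation hairpin, and 5 fell and 6 rose with the 5-mutation hairpin. Against the same shares of all genes, those that rose with the unmutated hairpin (21.1%) and those that fell and rose with the 5-mutation hairpin (26.3% and 31.6%) were near the background. Lipa, the lysosomal lipase that frees cholesterol from its esters, stood at 10.3 to 11.9 CPM with the empty vector and 37.7 to 43.3 with the 2-mutation hairpin, a rise of 1.85 ± 0.07 (adjusted p = 1.05e-15). Gramd1b, which carries sterol from the plasma membrane inward, fell with the unmutated hairpin by 0.85 ± 0.05, as did Soat1, which esterifies cholesterol, by 0.72 ± 0.08, and Vldlr, a lipoprotein receptor, by 0.25 ± 0.05, while Stard3 rose by 0.38 ± 0.07. With the 2-mutation hairpin, Lrp8, another lipoprotein receptor, fell by 0.73 ± 0.04, and Cyp46a1, the neuronal cholesterol hydroxylase, and the sterol carrier Osbp rose by 0.48 ± 0.04 and 0.45 ± 0.04. With the 5-mutation hairpin, Vldlr, Rxra (the partner of the LXR receptors) and Cyp46a1 fell by 1.07 ± 0.06, 0.70 ± 0.09 and 0.36 ± 0.04, and Npc2, which moves cholesterol out of the lysosome, rose by 0.49 ± 0.06. Each of these named differences had an adjusted p below 0.05.

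Within groups, the enzymes were often above or below their group mean in the same library. In replicate 3, 17 of the 18 enzymes stood above their group mean with the empty vector, 17 with the unmutated hairpin, 18 with the 2-mutation hairpin and 14 with the 5-mutation hairpin, while 49.5 to 53.3% of all genes tested did. The median distance of the enzymes from the group mean in replicate 3 was 0.09, 0.25, 0.13 and 0.06 on the log2 scale, while over all genes tested it lay between -0.001 and 0.01. With the 5-mutation hairpin, replicate 2 stood as high as replicate 3, with 14 enzymes above the group mean and a median distance of 0.08, and more enzymes were highest there (10 against 8). In replicate 4 of the unmutated hairpin, 0 of the 18 enzymes stood above the group mean. Over all genes tested, deviations from the group mean correlated best between libraries of the same number in 41 of 48 cases. The labels do not say what a replicate number stands for, and whether replicate 3 shares a culture or a day across groups was not tested.

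**Figure D4:**
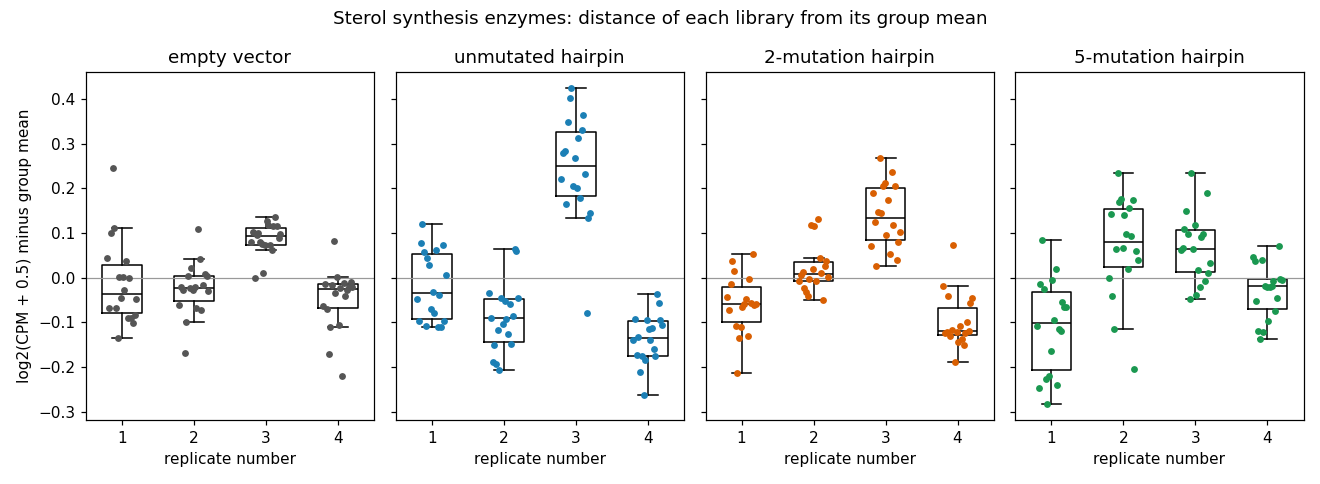
Distance of each of the 18 enzymes (points) from its group mean, as log2(CPM + 0.5) (y axis), in replicates 1 to 4 (x axis) of each group, with boxes for the median and quartiles. Replicate 3 lies above 0 for 17, 17, 18 and 14 enzymes from left to right, and replicate 2 of the 5-mutation hairpin for 14.

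Markers of cell types differed between the groups as well. The 10 neuron markers summed to 6051 to 6425 CPM with the empty vector, 5436 to 5664 with the unmutated hairpin, 6264 to 6582 with the 2-mutation hairpin and 5190.0 to 5506 with the 5-mutation hairpin. Under these sums single markers moved far and in both directions: 6, 5 and 6 of the 10 fell and 1, 4 and 2 rose (unmutated, 2-mutation and 5-mutation hairpin). Among all genes tested, 19.5%, 30.8% and 26.5% fell and 20.8%, 32.5% and 28.4% rose, in the same order. The share of these markers that rose was thus near the background with the 2-mutation hairpin and below it with the others. The share that fell was above the background with every hairpin. Gad2, an enzyme of inhibitory neurons, fell from 170.2 ± 16.5 to 37.9 ± 19.6, 17.1 ± 7.82 and 40.4 ± 15.1 CPM. Slc17a6, a vesicular glutamate transporter, stood at 25.3 to 28.2 CPM with the empty vector and rose to 129.5 to 148 CPM with the 2-mutation hairpin, and its relative Slc17a7 fell from 612 ± 27.1 to 81.7 ± 5.81 CPM with the 5-mutation hairpin.

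The 10 astrocyte markers summed to 964 to 1192, 737 to 1074, 736 to 930.0 and 482 to 694 CPM in the same order of groups, so with the 2-mutation and 5-mutation hairpins the sum lay wholly below the empty vector. Of the 9 tested, 2, 5 and 3 fell, or 22.2%, 55.6% and 33.3%, where 19.5%, 30.8% and 26.5% of all genes fell. Slc1a2, the glutamate transporter of astrocytes, made up most of that sum. It stood at 713 ± 30.6 CPM with the empty vector and 453.5 ± 62.7 with the unmutated hairpin. With the 2-mutation and 5-mutation hairpins it stood at 572 ± 23.7 and 393 ± 26.5 CPM. Gfap, Slc1a3, Sox9 and Gja1 were not called with any hairpin. The median log2 fold change over the 9 was 0.24, -0.61 and -0.59, so with the unmutated hairpin the sum and the median differed in sign. The 10 oligodendrocyte lineage markers summed to 59.1 to 71.4, 86.8 to 106.0, 55.1 to 62.4 and 88.1 to 106.5 CPM. Of the 7 tested, 4 rose with the unmutated hairpin (Olig1, Olig2, Cspg4 and Mbp), or 57.1%, where 20.8% of all genes rose. Mbp, a myelin protein, rose from 25.8 ± 2.37 to 36.5 ± 2.02 and 68.5 ± 5.62 CPM with the unmutated and 5-mutation hairpins, whereas Olig1 and Olig2 fell with the 2-mutation and 5-mutation hairpins. The 10 microglia markers summed to 14.5 to 16.9, 12.8 to 16.2, 16.1 to 17.6 and 11.1 to 14.1 CPM, and the 8 endothelial and mural markers to 6.86 to 10.8, 7.44 to 10.7, 4.91 to 7.06 and 6.16 to 15.6 CPM. Within these lists Sox10, Mag, Mog, Gjb6, C1qa, C1qb, Ctss, Cx3cr1, Itgam, P2ry12, Cdh5 and Cldn5 stood at 0.205 CPM or less in every library. The part of cell makeup in the members' differences was not tested. Gm26917, an abundant RNA, took 5.85 to 6.34% of the counts with the empty vector and 7.37 to 11.5% with the hairpins.

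**Figure D5:**
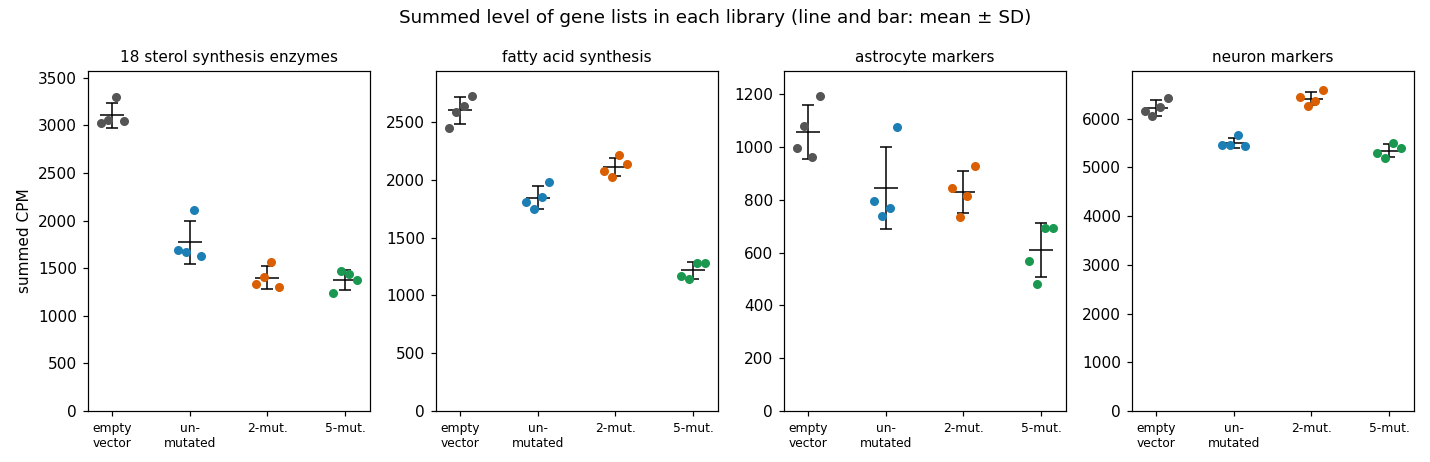
Summed CPM of the 18 sterol synthesis enzymes, the 4 fatty acid synthesis genes, 10 astrocyte markers and 10 neuron markers in each library, by group, with mean and SD as a line and bar and each axis from 0. Enzyme sums of all hairpin libraries (1236 to 2110 CPM) lie below the empty vector (3021 to 3301 CPM). So do the astrocyte sums, made up mostly of Slc1a2, with the 2-mutation and 5-mutation hairpins, and the neuron sums with the unmutated and 5-mutation hairpins.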

How the data were processed

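Total RNA was depleted of ribosomal RNA and made into directional libraries with a dUTP kit, per the labels' protocols. The submitters' processing notes name STAR 2.7.2b, GRCm38.p6, featureCounts, edgeR, cutadapt 1.15 and Trim Galore 0.6.0. The authors deposited raw counts per Ensembl gene, as whole numbers. How strand and multiply mapped reads were handled, and from which annotation release genes were taken, is not given in the sources used here. The 37 mitochondrial genes hold 0 counts.

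Gene symbols, positions and exon lengths came from GENCODE vM21 (GRCm38), which matched 55154 of the 55335 IDs, and start-site windows from RefSeq (GRCm38.p6). Fdps, Fdft1, Sqle, Stard4, Abcg1, Scd1 and Scd2 had no window. After filterByExpr and TMM scaling, edgeR 4.0.16 under R 4.3.3 gave robust quasi-likelihood fits to all 16 libraries, with a coefficient for each group. The 6 contrasts were tested 2-sided with Benjamini-Hochberg adjustment over 19479 genes, and an adjusted p below 0.05 is a call. CPM use TMM-scaled library sizes, and 95% intervals are the estimate ± 1.96 SE. No library was a copy of another, since chi-square per degree of freedom was 3.46 to 24.16 between libraries of a group. Alternatives were other scalings (RLE, upper quartile), DESeq2 1.42.0, other filters, a replicate block, a fit of only the groups compared, and libraries left out.

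The members and lists were chosen with earlier results of these data known. Values in every library are given for up to 8 members called in 1 direction with no overlap in all 3 comparisons with the empty vector, for up to 2 per role with the smallest p in each of these, for members called in opposite directions, and for Srebf1, Srebf2, Scap, Insig1 and Insig2. Up to 4 genes with the smallest p per comparison are named from each further list. Some genes of the pathway are not reported here.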

Additional observations from a re-analysis of the deposited data

Results flagged for a closer look

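In groups of 4 libraries, a library is listed when its gap to the nearest other is above Dixon's 95% critical share of the group's range. Of 132 gene-by-group sets tested, 11 were listed, and chance lists about 1 in 20. Replicate 3 of the unmutated hairpin was the highest of its group for 6 genes: Hmgcs1 (769.1 CPM, next 595.5), Idi1 (35.42, next 24.71), Sqle (237.6, next 187.9), Cyp51 (111.6, next 84.95), Stard4 (63.93, next 41.15) and Insig1 (85.42, next 60.11). Without the libraries numbered 3, the number of members called lower with the unmutated hairpin was 24, as with them.

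Replicate 3 was also the highest for Hsd17b7 with the 2-mutation hairpin (48.41 CPM, next 40.49) and for Dhcr7 with the empty vector (166.1 CPM, next 152.9). Replicate 4 was the highest for Srebf1 with the unmutated hairpin (37.29 CPM, next 27.78) and with the 2-mutation hairpin (31.38 CPM, next 25.66). Ebp was lowest in replicate 4 of the 2-mutation hairpin (9.192 CPM, next 10.22).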

How the results depend on the processing

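Over 99 fold changes of members against the empty vector and 1782 values under alternatives, 1742 kept their side of the threshold, 30 lost the call and 10 gained it. Direction was compared only where the main or the alternative value was called, and 0 of those reversed. The changes fell on 8 of the 99, those of Msmo1, Scap, Pmvk, Tm7sf2, Srebf1 and Insig2. The number of members higher with the unmutated hairpin, 2, was 1 with RLE factors, with DESeq2, without Gm26917 and Gm42418 and without replicate 3 in every group, and 1 to 2 when 1 library was left out. The number higher with the 5-mutation hairpin, 2, was 1 with RLE factors, with DESeq2, without Gm26917 and Gm42418 and with only the 2 groups compared, and 1 to 3 when 1 library was left out. The calls behind these lower counts are the small rises of Scap and Pmvk, and the other calls lost are falls of Msmo1 with the unmutated and of Pmvk with the 2-mutation hairpin. Without the low-count filter Scap lost its call and Srebf1 gained one with the unmutated hairpin, so the count was 2. Members lower numbered 23 to 24, 22 to 23 and 26 (unmutated, 2-mutation and 5-mutation hairpin) when 1 library was left out.

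With the replicate number as a block, members called higher and lower were 2 and 24, 4 and 23, and 3 and 26 against the empty vector, and 10 and 17, 5 and 23, and 12 and 16 between hairpins. The call gained with the block against the empty vector was that of Tm7sf2, higher with the 5-mutation hairpin (0.165 on the log2 scale, adjusted p = 0.0222). Deviations of same-numbered libraries from their group means correlated by -0.021 to 0.272, over 0.1 in 12 of 24 pairs. Their median was 0.099, against -0.032 for libraries with different numbers. The main fit held no block because the labels do not say that a replicate number marks a shared culture. Libraries correlated best with their own number in 41 of 48 cases, a hint from the data and not from the design. Depth did not limit the members: the lowest, Fdps, had a mean of 1.002 CPM with the 2-mutation hairpin.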
